A study of Saccharomyces cerevisiae with 9 samples.

Results

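The stretch described here is the first 350 nucleotides of ETS 1, the 5′ external transcribed spacer at the start of the 35S ribosomal RNA gene of Saccharomyces cerevisiae. Its members are 350 single-nucleotide positions of the 6858 in the gene, chosen by coordinate alone as ETS 1 positions 1 to 350. Position 1 is the start of the gene, and the stretch lies at chrXII:467220-467569 on the minus strand of build R64. It is the promoter-proximal part of ETS 1, which ends at position 700. The only feature annotated inside it is the 35S Core Promoter, which covers positions 1 to 5.

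The libraries fall into 3 groups: a wild-type strain (WT), a strain lacking RPA34 (rpa34Δ) and a strain lacking RPA49 (rpa49Δ), with 3 libraries each. All cultures were untreated and were grown at 30 °C, and WT was the control. The labels state neither the strain background nor the number of clones, nor whether replicates were separate cultures. The spread behind each p-value may therefore be technical. The assay was NET-seq, in which RNA polymerase I (Pol I) is immunoprecipitated with its RNA and each read marks the last nucleotide of 1 RNA.

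Pol I transcribes the 35S precursor, from which processing removes ETS 1 and the other spacers to leave the mature rRNAs. Rpa34 and Rpa49 are subunits of Pol I that form a heterodimer on the enzyme. The heterodimer is related to the general factors TFIIF and TFIIE of RNA polymerase II and is known for roles in initiation and elongation. A high count of RNA 3′ ends at a position is usually read as polymerase that dwells there.

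The 9 libraries held 1242139 to 5353045 reads on the gene, and the 3 rpa49Δ libraries were the smallest. The stretch itself held 149921 to 219515 reads in the WT libraries, 49053 to 78479 in rpa34Δ and 10185 to 15026 in rpa49Δ. Read counts were scaled to 1000000 per library (RPM), so that 1 read was worth 0.187 to 0.805 RPM, and were also expressed as a share of the reads in ETS 1. A share of the library cannot tell fewer reads in the stretch from more reads elsewhere on the gene, which is why the ETS 1 share is given too. Positions 1, 6 and 8 had no read in any library, and positions 1 to 11 together held 0 to 7 reads per library.

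The RNA of positions 91 to 150 (chrXII:467420-467479, minus strand, R64) holds the positions at which reads gathered in the deletion strains. It is shown once per strain, 5′ to 3′, with capitals at those nucleotides that were among the 8 highest of the 350 in that strain.
WT: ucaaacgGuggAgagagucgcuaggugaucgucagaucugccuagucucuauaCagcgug
rpa34Δ: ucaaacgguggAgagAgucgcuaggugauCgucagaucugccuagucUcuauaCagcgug
rpa49Δ: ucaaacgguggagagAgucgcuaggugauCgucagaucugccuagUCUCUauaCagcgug
In WT the capitals stand at positions 98, 102 and 144. In rpa34Δ they stand at 102, 106, 120, 138 and 144, and in rpa49Δ at 106, 120, 136 to 140 and 144.

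The following 100 nucleotides (chrXII:467320-467419, minus strand, R64) hold the 3 positions at 163, 175 and 232 that were high in WT and rpa34Δ but not in rpa49Δ. Capitals mark those 3.
positions 151 to 250: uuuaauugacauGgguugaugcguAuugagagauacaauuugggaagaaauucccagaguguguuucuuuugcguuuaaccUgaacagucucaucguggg
Position 336 (chrXII:467224-467254, minus strand, R64) stands for the end of the stretch, where WT was high and both deletion strains were low. It is in capitals within its own surroundings.
position 336: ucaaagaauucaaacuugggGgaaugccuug

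In WT, RNA 3′ ends were spread over the whole stretch, with many peaks of moderate height. Position 102 was highest, at 1929.8, 1734 and 2384 RPM in the 3 libraries. Position 232 followed with 1046, 1118 and 1565 RPM, and position 98 with 982, 1142 and 1408 RPM. Next came 336 (921 ± 74.0 RPM, SD, n = 3), 163 (753 ± 164), 80 (649 ± 45.4), 144 (621 ± 145) and 175 (570 ± 115). A total of 18 peaks met the rule of being the highest within 5 nt on each side and at least 5 times the median position. In WT 35 to 37 positions were needed to hold 50% of the reads in the stretch.

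**Figure D1:**
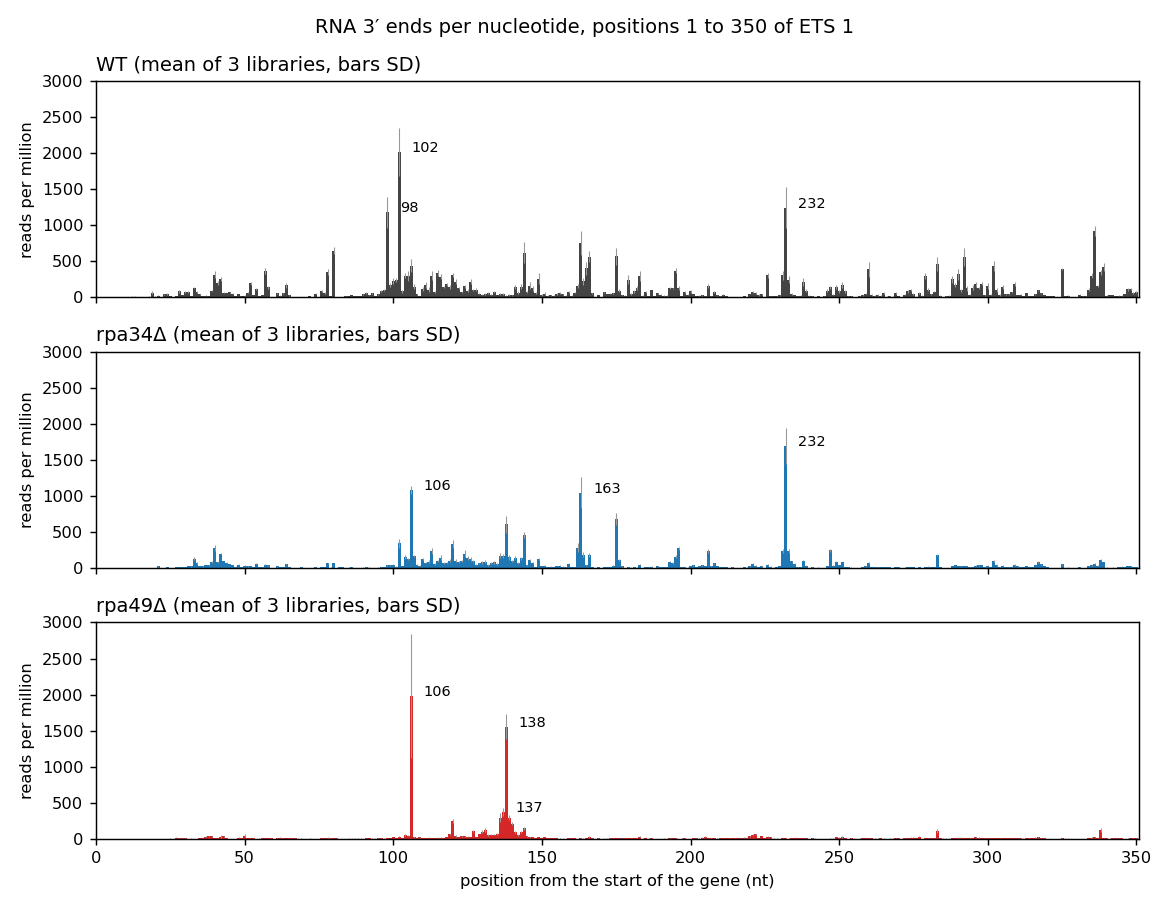
RNA 3′ ends in RPM (vertical axis) at each position from the start of the gene in nt (horizontal axis), as the mean of 3 libraries per strain with SD bars and the 3 highest positions numbered. WT reads spread over the whole stretch, whereas rpa49Δ reads stand mainly at 106 and around 138.

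The stretch took a smaller part of the library in both deletion strains. It held 3.37%, 3.15% and 4.10% of the library in WT (mean 3.54% ± 0.498, SD, n = 3). The share was 1.85%, 2.195% and 1.80% in rpa34Δ (1.95% ± 0.216) and 0.971%, 0.936% and 0.820% in rpa49Δ (0.909% ± 0.0792). No 2 groups overlapped, and WT held 1.82 times the share of rpa34Δ and 3.89 times that of rpa49Δ. The two-sided exact permutation test gave p = 0.1 for each of the 3 comparisons, the smallest p that 3 libraries against 3 allow. The 95% exact binomial interval of each library reached at most 0.0168 percentage points to either side, and it covers counting error only.

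As a share of ETS 1 reads the stretch was closer together in the 3 strains. It held 57.0%, 58.5% and 58.2% of ETS 1 reads in WT (57.9% ± 0.818) and 58.5%, 58.5% and 56.9% in rpa34Δ (58.0% ± 0.920). These 2 groups overlapped (exact permutation p = 0.8, n = 3 each). The rpa49Δ libraries, at 62.8%, 59.7% and 62.6% (61.7% ± 1.74), lay above all libraries of WT and of rpa34Δ (exact permutation p = 0.1 for each, n = 3). With positions 101 to 150 left out, the share in rpa49Δ was the lower one (log2 ratio to WT -0.75, and -0.63 to rpa34Δ).

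The strains differed in where within the stretch the reads lay, as 7 bins of 50 nt show. Positions 101 to 150 held 14.8% ± 0.813 of ETS 1 reads in WT, 21.4% ± 0.636 in rpa34Δ and 45.3% ± 1.70 in rpa49Δ. In RPM the same bin held 9079 ± 1629 in WT, 7193 ± 925 in rpa34Δ and 6668 ± 509 in rpa49Δ. Here WT and rpa34Δ overlapped, at 8030 to 10956 and 6556 to 8254 RPM, and rpa49Δ at 6105 to 7097 overlapped rpa34Δ but not WT.

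The bins on either side differed between the 2 deletions. Positions 51 to 100 held 7.77% ± 0.382 of ETS 1 reads in WT but 2.50% ± 0.143 in rpa34Δ and 1.91% ± 0.0757 in rpa49Δ. Positions 151 to 200 held 9.40% ± 0.376 in WT, 11.3% ± 0.495 in rpa34Δ and 2.13% ± 0.193 in rpa49Δ. Positions 201 to 250 held 6.49% ± 0.325, 11.4% ± 0.294 and 3.88% ± 0.0952 in the same order. Relative to ETS 1 the middle of the stretch was fuller in rpa34Δ than in WT and emptier in rpa49Δ. In RPM it was not fuller in rpa34Δ. Positions 151 to 200 held 5754 ± 907 RPM in WT, 3793 ± 527 in rpa34Δ and 315 ± 51.5 in rpa49Δ. Positions 201 to 250 held 3980 ± 705, 3813 ± 406 and 571 ± 43.9.

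At the far end both deletion strains were low. Positions 251 to 300 held 7.92% ± 0.560 of ETS 1 reads in WT, 3.16% ± 0.222 in rpa34Δ and 3.42% ± 0.174 in rpa49Δ. Positions 301 to 350 held 8.05% ± 0.284, 3.71% ± 0.169 and 2.83% ± 0.0794. In these shares only 1 of the 21 pairs of groups overlapped, namely the deletions at 251 to 300 (exact permutation p = 0.3), and the other 20 each gave the smallest possible p of 0.1. The first bin held the fewest reads in WT, with 2079 ± 266 RPM against 1538 ± 137 in rpa34Δ and 334 ± 81.1 in rpa49Δ. As a share of ETS 1 reads that bin was higher in rpa34Δ, at 4.59% ± 0.241 against 3.46% ± 0.724 in WT and 2.245% ± 0.354 in rpa49Δ.

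**Figure D2:**
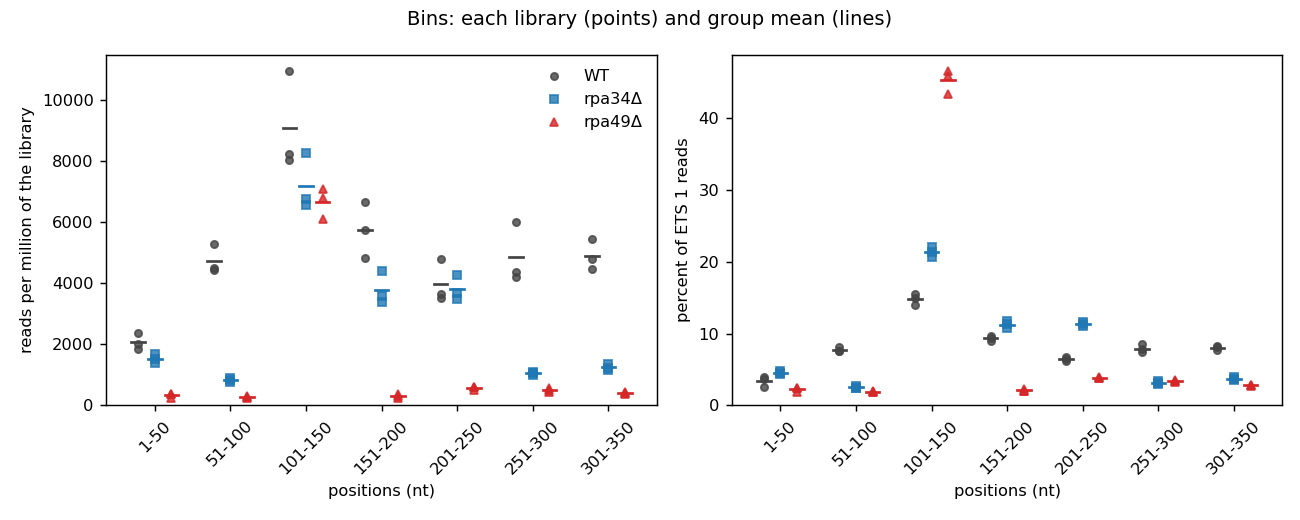
Reads in each bin of 50 nt, in RPM on the left and as a percent of ETS 1 reads on the right, with 1 point per library and a line at each group mean. Positions 101 to 150 hold 45.3% of ETS 1 reads in rpa49Δ against 14.8% in WT, and the bins at 151 to 250 separate rpa34Δ from rpa49Δ.

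Position by position, most of the stretch was lower in rpa34Δ than in WT, with a small set of rises. Of the 285 positions that reached a mean of 10 RPM over both groups, 197 fell and 28 rose (limma on log2(RPM + 10), adjusted p under 0.05 over the whole gene). Over all 6425 positions tested in the gene, 23.4% fell, 19.8% rose and 43.2% changed in either direction. The median log2 change was -0.87 over the positions tested here and 0.01 over the gene. The other 65 positions were too low to test, and none of them reached a group mean above 15.0 RPM. Log2 changes on this scale understate the change of low positions.

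The largest falls were at positions 98, 292, 279 and 336, of which 292 and 336 were WT peaks. Position 98 went from the WT values given above to 34.3, 43.9 and 39.8 RPM in rpa34Δ (log2 change -4.58, SE 0.118, limma adjusted p = 8.3e-12). Position 292 had 519, 466 and 697 RPM in WT and 29.0, 31.6 and 33.6 in rpa34Δ (log2 change -3.77, SE 0.124). Position 336 had 882, 875 and 1007 RPM in WT and 60.3, 69.1 and 59.4 in rpa34Δ (log2 change -3.67, SE 0.0866). At each of these the libraries of the 2 strains lay far apart. Positions 279, 179, 165, 101 and 80 also fell, with log2 changes of -3.73, -3.22, -3.12, -3.04 and -3.03. In the last 100 positions 73 of 82 tested fell and 0 rose, and at 51 to 100 34 of 36 fell.

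Position 102, 4 nt after 98, had a smaller log2 change in rpa34Δ. It had 275, 382 and 369 RPM there (log2 change -2.53, SE 0.138, limma adjusted p = 9.26e-09). Position 106, another 4 nt on, moved the other way, from 401, 372 and 540 RPM in WT to 1020.1, 1127 and 1103 (log2 change 1.31, SE 0.121, limma adjusted p = 1.68e-06). The 13 nucleotides from 96 to 108 held 5328 ± 897 RPM in WT and 2130 ± 202 in rpa34Δ. Of those reads, 22.1% ± 1.94 stood at 98, 37.9% ± 1.597 at 102 and 8.18% ± 0.334 at 106 in WT. In rpa34Δ the same 3 positions held 1.84% ± 0.0661, 16.0% ± 1.33 and 51.0% ± 2.31.

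The largest rise in rpa34Δ was at position 138, a U that was low in WT. It had 18.4, 20.6 and 28.4 RPM in WT and 606, 723 and 485 in rpa34Δ (log2 change 4.24, SE 0.140, limma adjusted p = 8.3e-11). Its neighbours 137, 139, 136 and 140 rose as well, with log2 changes of 1.68, 1.88, 1.61 and 1.59. Together positions 136 to 140 held 180 ± 42.7 RPM in WT and 1200 ± 233 in rpa34Δ. Within the 12 positions 129 to 140, a stretch delimited after the values were seen, 10 rose and 0 fell.

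The WT peaks at 144, 163, 175 and 232 were also peaks of rpa34Δ. Position 232 had 1624, 1962 and 1477 RPM and was the highest of rpa34Δ (log2 change to WT 0.45, SE 0.155, limma adjusted p = 0.0313). Position 163 had 1038, 1270 and 831 RPM (log2 change 0.47, SE 0.162, limma adjusted p = 0.0313). The call was lost for 232 in 8 of 18 other settings and for 163 in 7, with adjusted p up to 0.141 and 0.169. Position 175, at 604, 772 and 665 RPM, did not pass the test (log2 change 0.26, limma adjusted p = 0.117). Lower positions of the same part also rose, 196 with a log2 change of 1.00 and 247 with 0.80.

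Relative to ETS 1 reads, the counts in rpa34Δ were more balanced. On that scale 139 of 290 tested positions fell and 99 rose (limma, adjusted over the 564 ETS 1 positions tested). The shares over all of ETS 1 were 41.7% and 34.6%, with 76.2% changed in either direction, so the counts of the stretch lay near those of ETS 1 as a whole. All 28 positions that rose in RPM also rose as a share of ETS 1, and another 58 that were not called in RPM rose on this scale. Position 232 had a log2 change of 1.31 here and position 138 one of 4.998. Another 10 positions fell in RPM and rose as a share of ETS 1. The calls on this scale rest on a spread shared strongly across positions (prior df 122). With all 9 libraries in 1 fit, 113 of the 290 positions fell and 70 rose.

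In rpa49Δ most tested positions of the stretch were lower than in WT. Of 276 positions tested, 246 fell and 15 rose (limma on log2(RPM + 10), adjusted p under 0.05 over the whole gene). Over all 6320 positions tested in the gene, 30.5% fell, 27.1% rose and 57.6% changed in either direction. The median log2 change was -1.94 over the positions tested here and 0.01 over the gene. All 79 tested positions from 251 to 350 and all 33 from 51 to 100 fell. The 74 positions not tested had group means up to 16.7 RPM.

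Among the largest falls in rpa49Δ were 3 peaks that were still present in rpa34Δ. Position 232 had 12.9, 4.5 and 7.2 RPM in the 3 libraries (log2 change to WT -6.11, SE 0.163, limma adjusted p = 6.97e-16). Position 163 had 10.3, 2.6 and 5.6 RPM (log2 change -5.57, SE 0.170) and position 175 had 12.9, 5.7 and 6.4 RPM (log2 change -4.98, SE 0.159). The median position of the stretch lay at 5.64 to 5.82 RPM in these libraries.

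Positions 102, 98 and 336, which fell in rpa34Δ, also fell in rpa49Δ. Position 102 had 32.3, 34.4 and 24.2 RPM (log2 change to WT -5.65, SE 0.129, limma adjusted p = 7.41e-17). Position 98 had 13.6, 15.3 and 14.5 RPM (log2 change -5.59, SE 0.126), and position 336 had 18.1, 24.9 and 14.5 RPM (log2 change -5.01, SE 0.129). Positions 80, 325 and 292 had log2 changes of -4.97, -4.72 and -4.71.

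**Figure D3:**
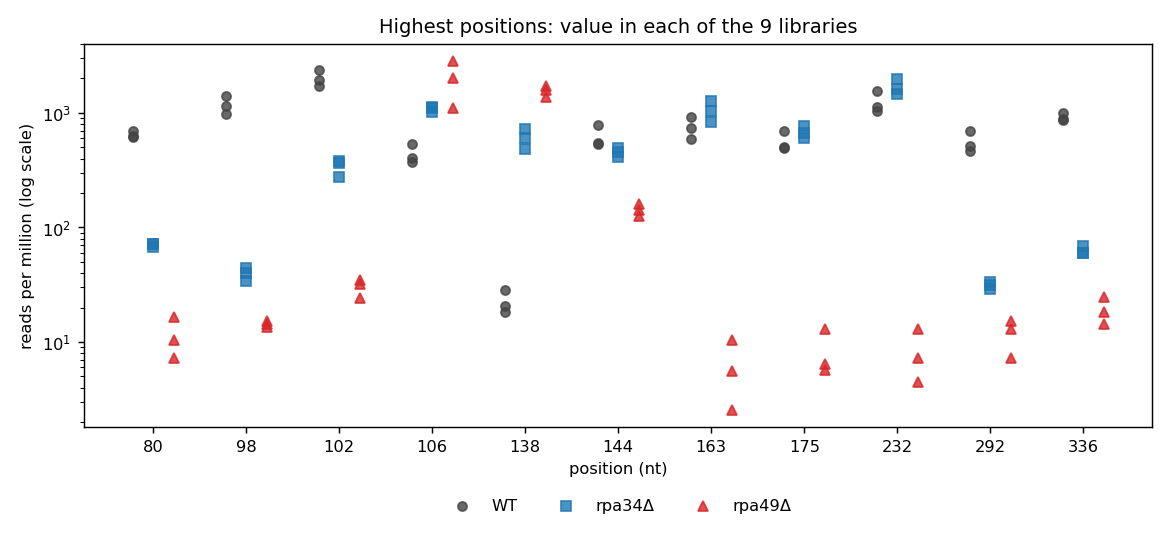
RPM on a log axis at 11 high positions of the stretch, with 1 point for each of the 9 libraries. At 106 and 138 the deletion strains lie above WT, at 163, 175 and 232 only rpa49Δ lies far below, and at 98, 292 and 336 both deletion strains do.

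Against this general fall, reads in rpa49Δ gathered at 2 places. At position 138 the 3 libraries had 1370.3, 1575 and 1719 RPM, against at most 28.4 in WT (log2 change 5.60, SE 0.125, limma adjusted p = 7.41e-17). Positions 137, 139, 140 and 136 rose with it, with log2 changes of 2.79, 2.80, 2.56 and 2.33. At position 106 the libraries had 2819, 2032 and 1099.7 RPM (log2 change 2.07, SE 0.229, limma adjusted p = 3.04e-07). All 3 lay above the WT libraries, but they spread over more than a factor of 2 among themselves.

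Those 2 single nucleotides held a large part of all rpa49Δ reads in the stretch. Positions 106 and 138 together held 43.1%, 38.5% and 34.4% of the reads in the stretch in the rpa49Δ libraries (38.7% ± 4.38). The same 2 positions held 8.68% ± 0.222 in rpa34Δ and 1.29% ± 0.0818 in WT. Of all ETS 1 reads they held 23.9% ± 2.89, 5.03% ± 0.108 and 0.748% ± 0.0524. The sum varied less between rpa49Δ libraries than its parts did: 106 held 18.2%, 13.0% and 8.40% of ETS 1 reads, and 138 held 8.86%, 10.05% and 13.1%.

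The remaining 9 positions that rose in rpa49Δ were 38, 50, 129, 130, 131, 133, 135, 205 and 219, and all but 130 and 131 had log2 changes under 1. Positions 130 and 131 had log2 changes of 1.17 and 1.196. Position 120, a peak of both deletion strains but not of WT, had 282, 308 and 339 RPM in WT and 267, 253 and 217 in rpa49Δ (log2 change -0.32, limma adjusted p = 0.0194, lost in 3 of 18 other settings). Position 144 fell from 532, 543 and 789 RPM to 159, 144 and 126 (log2 change -2.03).

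As a share of ETS 1 reads, 158 of 299 tested positions fell in rpa49Δ and 58 rose. Over all 574 ETS 1 positions tested the shares were 50% and 18.5%, with 68.5% changed in either direction, so here too the counts lay near those of ETS 1 as a whole. The median log2 change was -0.64, against -0.52 over ETS 1. All 12 positions from 129 to 140 rose on this scale. Position 138 had a log2 change of 7.55 and position 106 one of 4.11, while 232 had one of -4.81. Position 144, which fell in RPM, had a log2 change of -0.06 on this scale (limma adjusted p = 0.803).

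The direct comparison of the deletions showed where the loss of Rpa49 differed from the loss of Rpa34. Of 204 positions tested, 158 were lower in rpa49Δ than in rpa34Δ and 12 higher, while over the 6083 positions tested in the gene 19.5% were lower, 10.9% higher and 30.4% changed in either direction. The other 146 positions were not tested, with group means up to 16.2 RPM. The count of 12 was 6 without rpa34Δ replicate 1, 7 without rpa34Δ replicate 3 and 7 without rpa49Δ replicate 2. The median log2 change was -1.15, against 0.00 over the gene.

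The largest differences between the deletions were the lost middle peaks. The log2 change from rpa34Δ to rpa49Δ was -6.56 at 232 (SE 0.151, limma adjusted p = 8.11e-13), -6.04 at 163 and -5.25 at 175. Positions 162, 196, 247, 233 and 164 followed, from -4.55 to -3.87. Position 102 was also lower in rpa49Δ than in rpa34Δ (log2 change -3.12, SE 0.142), whereas 98, already low in rpa34Δ, differed by a log2 change of -1.01. At the far end, position 279 did not pass the test between the deletions (log2 change -0.36, limma adjusted p = 0.0747).

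At 136 to 140 rpa49Δ was the higher of the deletions. The log2 change from rpa34Δ was 1.36 at position 138 (SE 0.139) by limma, with an adjusted p of 2.12e-06, while 137, 140, 139 and 136 had changes of 1.11, 0.97, 0.92 and 0.72. Positions 136 to 140 held 2725 ± 345 RPM in rpa49Δ, or 18.8% ± 4.24 of ETS 1 reads, against 3.56% ± 0.443 in rpa34Δ and 0.292% ± 0.0280 in WT. Position 222 was higher in rpa49Δ as well, with 65.3, 56.8 and 60.4 RPM against 24.1, 36.9 and 25.8 in rpa34Δ. Its level in WT was 59.1 ± 9.95 RPM, so in RPM it was rpa34Δ that stood apart there (log2 change from WT to rpa34Δ -0.83). As a share of ETS 1 reads, position 222 did not pass the test between WT and rpa34Δ (log2 change -0.15). On that scale rpa49Δ lay above rpa34Δ (log2 change 2.04).

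In RPM, the difference between the deletions at 106 rested on few libraries. The log2 change was 0.77 (SE 0.236, limma adjusted p = 0.0222), and rpa49Δ replicate 3 at 1099.7 RPM lay within the range of rpa34Δ. The call was lost without rpa34Δ replicate 1, without rpa49Δ replicate 1 (log2 change 0.46) and without rpa49Δ replicate 2, with adjusted p up to 0.105. Within positions 96 to 108, however, 106 held 91.6%, 89.1% and 84.0% of the reads in rpa49Δ, above the 53.6%, 49.3% and 50.1% of rpa34Δ, without overlap. Relative to ETS 1 reads, 108 of 287 tested positions were lower in rpa49Δ and 55 higher. Over all 561 ETS 1 positions tested the shares were 38.1% and 17.3%, with 55.4% changed in either direction.

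**Figure D4:**
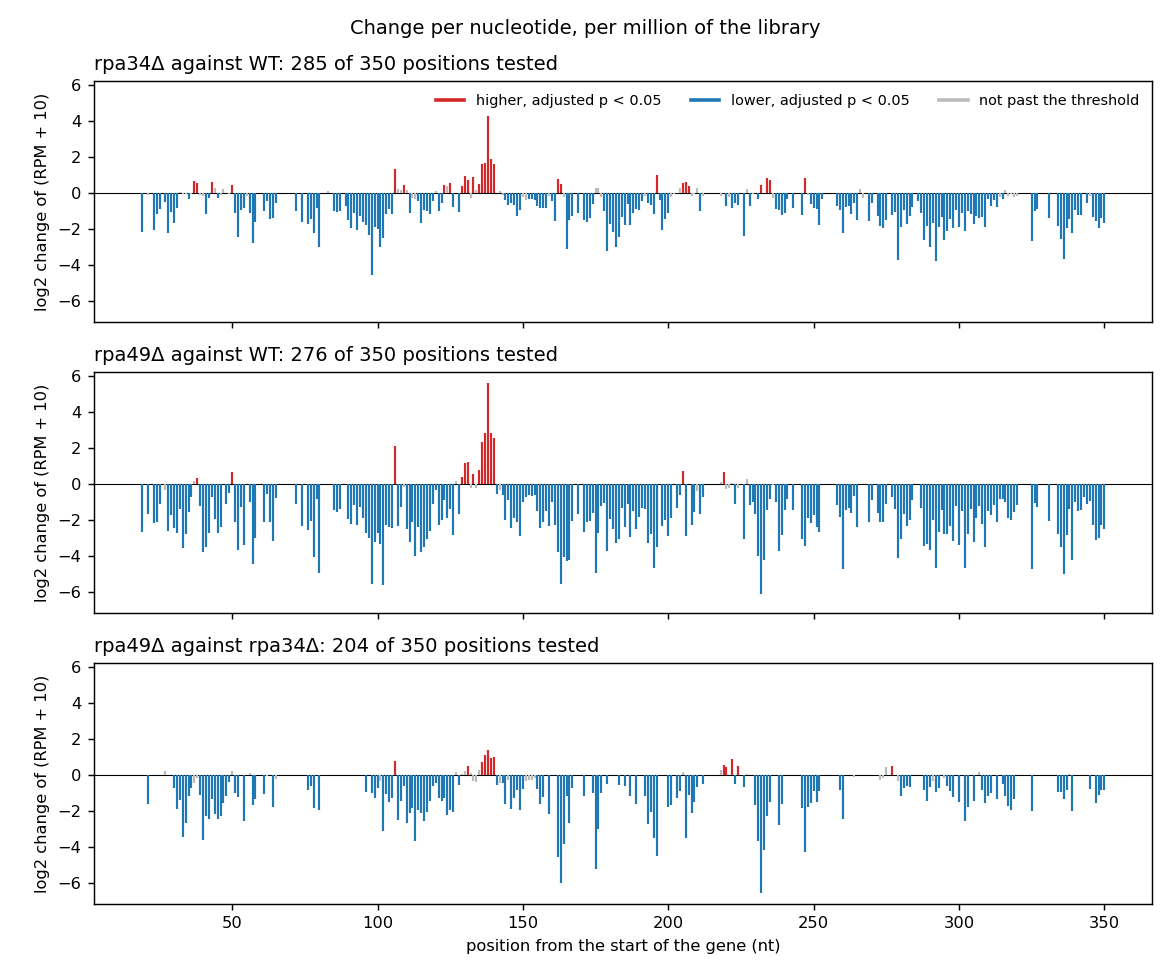
Log2 change of RPM + 10 at each tested position, by position from the start of the gene in nt, in 3 panels for the 3 comparisons, with red for higher, blue for lower and grey for positions that did not pass an adjusted p of 0.05. Rises cluster at 129 to 140 in both comparisons with WT, and blue lines fill nearly all the rest of the rpa49Δ panel.

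In the deletion strains the mean position of the reads lay closer to the promoter, and the reads stood on fewer positions. The mean position of the reads, weighted by occupancy, was 181 ± 2.10 in WT, 166 ± 0.800 in rpa34Δ and 147 ± 2.71 in rpa49Δ, with no overlap between groups (exact permutation p = 0.1 for each pair, n = 3). With the 5 highest positions left out, the difference of rpa49Δ from rpa34Δ was -2.56 nt (exact permutation p = 0.2). Reads were 75% complete by position 265 in each WT library, by 231 or 232 in rpa34Δ and by 140 or 141 in rpa49Δ. The point of 25% lay further from the promoter in the deletion strains. It was at 102, 102 and 104 in WT, 115, 115 and 111 in rpa34Δ, and 106, 106 and 120 in rpa49Δ. Only 5 or 6 positions held 50% of the reads in rpa49Δ, against 24 to 26 in rpa34Δ.

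**Figure D5:**
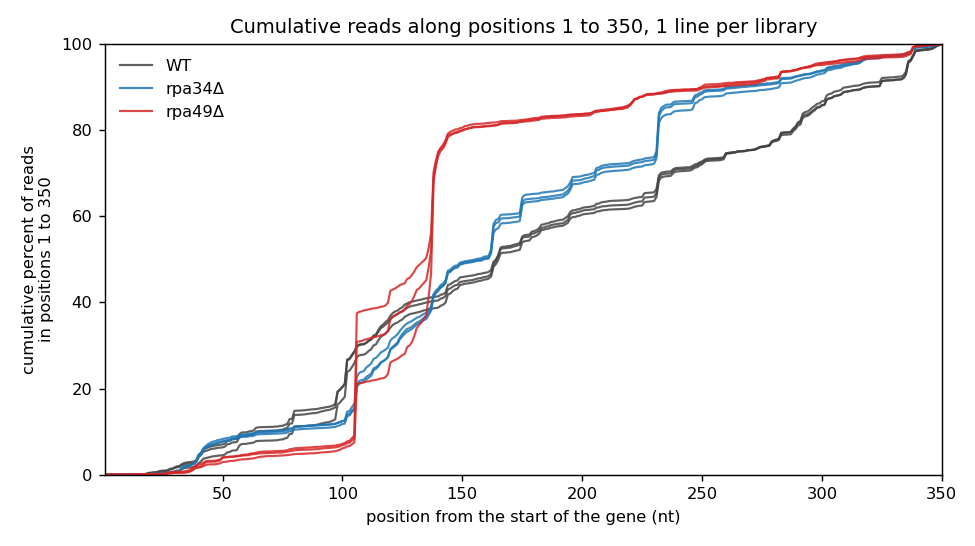
Cumulative percent of the reads in positions 1 to 350, by position from the start of the gene in nt, with 1 line per library. The WT lines climb over the whole stretch, with steps at 102 (mean 5.68% of the reads) and 232 (3.49%). The rpa34Δ lines have steps at 106 (5.59%), 163 and 232 (8.65%). The rpa49Δ lines pass 75% by position 141 after steps at 106 and 138.

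The Gini coefficient, which is 0 for even reads and approaches 1 when few positions hold all of them, was 0.646 ± 0.0076 in WT, 0.706 ± 0.0115 in rpa34Δ and 0.810 ± 0.00332 in rpa49Δ. The 10 highest positions of each library held 25.6% ± 0.746, 34.98% ± 0.794 and 59.0% ± 1.30 of the reads in the stretch. No groups overlapped in either measure (exact permutation p = 0.1 for each pair, n = 3), also with all libraries thinned to 10185 reads in the stretch. Between any WT and any rpa34Δ library 36.4% to 40.5% of reads were placed at different positions, and between WT and rpa49Δ libraries 65.9% to 67.4%. Within strains the figure was 5.81% to 7.22% for WT, 4.54% to 7.16% for rpa34Δ and 12.6% to 22.7% for rpa49Δ.

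Peaks were compared by their exact position. Of the 18 WT peaks, 7 (38.9%) were also among the 16 peaks of rpa34Δ, which is 43.8% of the latter. Of the WT peaks, 1 (5.56%) was among the 10 of rpa49Δ, and 5 of the rpa34Δ peaks (31.2%) were, or 50% of the rpa49Δ list. Within 1 nt, WT shared 8 peaks with rpa34Δ and 2 with rpa49Δ, and rpa34Δ shared 7 with rpa49Δ. The rule was set by the median position of each strain (40.9 RPM in WT, 17.8 in rpa34Δ and 5.79 in rpa49Δ), so lower positions count as peaks in the deletion strains. The overlap of unrelated lists was not calculated, so a small overlap cannot be told from chance. Position 283 was the only 1 of 32 peak positions present in all 3 strains, at 465 ± 96.9 RPM in WT, 181 ± 15.8 in rpa34Δ and 110 ± 27.9 in rpa49Δ. Position 338 was a peak of the deletion strains but not of WT, although its RPM was higher in WT (349 ± 35.4, against 119 ± 11.7 and 125 ± 29.0), where 336 stood above it.

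The last base of the RNA differed between strains. The stretch holds 108 U, 94 G, 93 A and 55 C. Reads ended in G for 29.8% ± 0.154 in WT, 22.7% ± 0.260 in rpa34Δ and 11.7% ± 0.765 in rpa49Δ. They ended in U for 21.1% ± 0.242, 30.0% ± 0.638 and 35.6% ± 5.27, and in C for 10.98% ± 0.373, 13.3% ± 0.187 and 18.9% ± 1.95. None of these groups overlapped (exact permutation p = 0.1 for each pair, n = 3). For A the values were 38.1% ± 0.280, 33.97% ± 0.954 and 33.8% ± 7.85, and the rpa49Δ libraries overlapped both other groups. Single positions weighed heavily in these shares. Position 138, a U, held 0.0631% ± 0.00753 of the reads in the stretch in WT, 3.09% ± 0.342 in rpa34Δ and 17.3% ± 3.45 in rpa49Δ. Position 232, also a U, held 3.49% ± 0.361, 8.65% ± 0.386 and 0.0897% ± 0.0427. A change of base apart from such positions was not tested.

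The sequence around the highest positions differed too. Of the 35 highest positions in WT, 20 were preceded by G and 16 were themselves A. In rpa34Δ 13 of 35 were preceded by G and 15 were A, and in rpa49Δ 7 were preceded by G and 9 were A. In the whole stretch 26.9% of positions are preceded by G and 26.6% are A. These counts describe overlapping lists and neighbouring positions, so no test was made.

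The RNA just upstream of the gathering site at 138 can be drawn as a hairpin. Of the 321 RNAs of 30 nt that end within the stretch, those ending at 137 and 138 had the most stable predicted fold, at -16.1 kcal/mol at 30 °C against a median of -4.45. It forms 11 base pairs between positions 110 and 136 (chrXII:467425-467460 with the 9 nucleotides that follow, minus strand, R64), around a loop at 121 to 124. Capitals mark paired bases.
hairpin and what follows: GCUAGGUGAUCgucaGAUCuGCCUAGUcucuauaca
The RNAs ending at 136, 139 and 140 ranked 3, 4 and 7. Position 106 ranked 122 of 321, and the RNA with the second stable hairpin of the stretch (-14.3 kcal/mol) ended at 213. All strains were low at that nucleotide, with 5.20 ± 1.23, 5.54 ± 0.192 and 6.04 ± 2.14 RPM. A little further on, position 222 was a peak of rpa49Δ at 60.8 RPM (log2 change to WT 0.04 in RPM). The prediction is from sequence alone and takes each RNA as free to pair up to its last nucleotide, without the polymerase or the DNA. Whether the hairpin forms there, and a part played by it in the counts, was not tested.

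The edge of the stretch at position 350 cuts through ordinary signal. Positions 349 and 350 had means of 61.6 and 75.6 RPM in WT, and positions 351 and 352 had 75.5 and 52.8. In rpa49Δ the same 4 positions had means of 4.94, 4.81, 1.98 and 3.58 RPM.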

How the data were processed

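NET-seq libraries of 3 strains, with 3 libraries each, were analysed. Per the file headers, the authors deposited for each library a normalized value per nucleotide of the 35S gene, in reads per 1000000 reads (RPM). Each column sums to 1000000 from position 1 to the terminator position 6739. Per the submitters' processing notes, the tools were STAR 2.7.1a with build R64, cutadapt 3.4, R 4.0.2, bcl2fastq 2.20.00, bedtools 2.28.0 and SAMtools 1.6. The sources used here do not say how molecular identifiers or the repeated gene copies were handled. Reads on another copy cannot be told from reads on this one.

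In each library at least 99.956% of the deposited values were whole multiples of 1 read within 0.01 read. The deposited values were rescaled to 1000000 over the whole gene. On the whole reads recovered from them, edgeR 4.0.16 (quasi-likelihood test) called 28 positions higher and 197 lower in rpa34Δ, 15 and 246 in rpa49Δ, and 12 and 158 between the deletions. PCR copies may remain, so intervals cover counting error only.

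Each comparison tested the positions of the whole gene whose mean in its 6 libraries reached 10 RPM, with limma 3.58.1 (lmFit, eBayes with trend, R 4.3.3) on log2(RPM + 10), with Benjamini-Hochberg adjustment and a threshold of 0.05. The second scale was log2(reads per 1000000 ETS 1 reads + 200), over ETS 1 positions with a mean of at least 200. In rpa34Δ against WT its spread was shared strongly across positions (prior df 122), so its p-values there are not printed. For measures with 1 value per library, two-sided exact permutation tests ran over the 10 splits of 3 against 3. After adjustment over the 7 bins, the 4 bases or the 5 whole-stretch measures no value is below 0.1. Folds were predicted with ViennaRNA 2.7.2. The tests were tried on simulated data.

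Named positions are the 8 highest of each strain and, per comparison, the 8 largest rises and falls in RPM and the 3 largest in ETS 1 share. Other positions named (38, 43, 50, 123, 125, 129, 133, 135, 205, 206, 213, 234, 235, 283, 338 and those next to the edge) and the groups 96 to 108, 129 to 140 and 136 to 140 were chosen after their values were seen. The members, lists and measures were all chosen with earlier results of these data known. Sequences come from the base column of the deposited files.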

Additional observations from a re-analysis of the deposited data

Results flagged for a closer look

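At 11 positions of the stretch the deletions lay on opposite sides of WT in RPM: each was higher than WT in rpa34Δ and lower in rpa49Δ by limma. The direct comparison of the deletions passed the threshold at each. That follows largely from how the positions were chosen and adds no separate support. The log2 change from rpa34Δ to rpa49Δ was -6.56 at position 232, -6.04 at 163, -4.55 at 162, -4.53 at 196, -4.27 at 247 and -3.51 at 206. It was -2.30 at position 234, -1.96 at 125, -1.51 at 235, -1.36 at 43 and -1.30 at 123. The rises from WT to rpa34Δ among them ran from a log2 change of 0.43 at 123 to 1.00 at 196. The calls for that rise at 232, 163, 123 and 125 were each lost in at least 1 other setting. The opposite directions did not hold at every position as a share of ETS 1 reads. On that scale 43 and 123 were higher than WT in rpa49Δ too (log2 changes 0.98 and 0.88).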

How the results depend on the processing

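With a minimum mean of 50 RPM, 86, 99 and 47 positions were lower in rpa34Δ against WT, rpa49Δ against WT and rpa49Δ against rpa34Δ, and 7 were higher in the last. With a minimum of 1000 per 1000000 ETS 1 reads, 60, 34 and 32 were higher and 60, 81 and 58 lower. With 1 library left out in turn, 6 to 14 were higher in rpa49Δ against rpa34Δ, with 6 without rpa34Δ replicate 1, 7 without rpa34Δ replicate 3 and 7 without rpa49Δ replicate 2. Fewer positions or fewer libraries enter these fits. WT had 10 peaks at 10 times the median and 28 with 2 positions on each side, and rpa49Δ had 6 at 10 times. The log2 ratio of the ETS 1 share, rpa34Δ to WT, was -0.041 without the 5 highest positions of ETS 1, -0.0219 for positions 1 to 400, -0.120 without positions 101 to 150 (added after seeing the data), and -0.00949 to 0.015 with 1 library left out. For rpa49Δ to WT it was -0.137 and -0.75 without the 5 highest and without 101 to 150, and to rpa34Δ -0.096 and -0.632. The share ending in A differed by -3.82 to 3.96 points between rpa49Δ and rpa34Δ with 1 library left out. The deviations of same-numbered libraries from their group means had correlations from -0.285 to 0.253, and those of differently numbered libraries from -0.306 to 0.422. With 3 libraries per group this cannot show whether libraries with the same number share more than that. Fits with the replicate number as a block called 24 higher and 190 lower in rpa34Δ, 14 and 246 in rpa49Δ, and 13 and 162 between the deletions. As a share of ETS 1 reads the block fits called 99 and 138, 59 and 163, and 60 and 107. On that scale, fits of all 9 libraries together called 70 higher and 113 lower in rpa34Δ. They called 64 and 166 in rpa49Δ, and 64 and 121 between the deletions. Of the 99 called results for named positions in RPM, 88 kept their call in all alternatives and 11 lost it in 40 of 1765 refits. Of 96 as a share of ETS 1 reads, 91 kept it and 5 lost it in 10 of 1339, and none of either reversed. In rpa49Δ low reads limit what is tested, since 1 read was worth up to 0.805 RPM.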

Other observations

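The rpa49Δ libraries differed more from each other than those of the other strains, also at the 2 positions where their reads gathered. Replicate 1 had the most reads at 106 (29.0% of those in the stretch, against 21.7% and 13.4%) and the fewest at 138 (14.1%, against 16.8% and 21.0%). Reads ending in A, the base at 106, made up 41.0%, 34.9% and 25.4% of the stretch in the same libraries. Reads ending in U, the base at 138, made up 30.9%, 34.6% and 41.3%. Positions 1 to 18, none of which could be tested, held 78 to 288 reads per WT library, 26 to 33 per rpa34Δ library and 7 to 17 per rpa49Δ library. As a share of the reads in the stretch these were 0.0355% to 0.192%, 0.0331% to 0.0612% and 0.0466% to 0.167%, which overlap between all 3 strains.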
